A study of Mus musculus with 9 samples.

Results

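The aryl hydrocarbon receptor (Ahr), its dimerization partner Arnt and 4 genes that the receptor is known to induce (Ahrr, Cyp1a1, Cyp1b1 and Tiparp) were followed across mouse aortic valve explants treated with retinoic acid or with a blocker of its receptors. The members were fixed by gene symbol, and each of the 6 symbols, of 19934 in all with a probe set of their own, had 1 probe set among the 23397 with a listed gene, in a table of 28270 rows. The tissue was the aortic valve of C57BL/6J pups at postnatal day 1, with the valves of 5 to 6 pups pooled per sample and cultured on floating filters in medium with fetal bovine serum. The groups were 3 pools with 1 µmol/L all-trans retinoic acid in DMSO (ATRA), 3 pools with the retinoic acid receptor antagonist LE540, for which the labels give neither dose nor vehicle, and 3 pools with DMSO alone at 0.001%, all for 48 hours. Each explant pool is a mixture of cell types, the labels call the pools biological replicates, and they do not give the sex of the pups. The labels do not say whether either compound acts on the aryl hydrocarbon receptor.

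Ahr is a ligand-activated transcription factor of the bHLH-PAS family that rests in the cytosol with Hsp90 and other chaperones. On binding a ligand, such as a dioxin, a plant indole or a product of tryptophan breakdown, it enters the nucleus, pairs with Arnt and binds DNA elements with the core GCGTG. Cyp1a1 and Cyp1b1 then oxidize many of its ligands, while Ahrr and Tiparp restrain the receptor, so that these 4 genes are commonly used as readouts of its activity.

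RefSeq promoter windows (GRCm38.p6) were found for 5 of the 6 genes, all but Ahr. The 250 bases before the start site are shown for the 4 target genes, 5′ to 3′ on the gene's strand, since their transcripts are the usual readouts of the receptor. Capitals mark GCGTG on either strand (CACGC where it lies on the opposite strand).
Ahrr, chr13:74292332-74292581, minus strand: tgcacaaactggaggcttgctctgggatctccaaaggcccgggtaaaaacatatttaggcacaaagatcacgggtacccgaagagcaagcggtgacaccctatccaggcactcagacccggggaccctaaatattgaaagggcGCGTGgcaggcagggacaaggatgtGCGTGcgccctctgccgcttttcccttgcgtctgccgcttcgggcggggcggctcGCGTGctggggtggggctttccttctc
Cyp1a1, chr9:57697363-57697612, plus strand: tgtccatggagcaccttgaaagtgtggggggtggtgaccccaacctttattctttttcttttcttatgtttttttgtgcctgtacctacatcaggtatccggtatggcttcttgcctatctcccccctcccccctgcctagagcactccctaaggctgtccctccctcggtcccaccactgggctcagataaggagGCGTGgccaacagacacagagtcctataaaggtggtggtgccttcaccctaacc
Cyp1b1, chr17:79715062-79715311, minus strand: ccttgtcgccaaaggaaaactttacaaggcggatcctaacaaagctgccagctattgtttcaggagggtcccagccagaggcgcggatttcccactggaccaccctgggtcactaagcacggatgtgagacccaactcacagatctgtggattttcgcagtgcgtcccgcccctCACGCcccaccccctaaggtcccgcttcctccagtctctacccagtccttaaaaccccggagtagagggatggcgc
Tiparp, chr3:65528197-65528446, plus strand: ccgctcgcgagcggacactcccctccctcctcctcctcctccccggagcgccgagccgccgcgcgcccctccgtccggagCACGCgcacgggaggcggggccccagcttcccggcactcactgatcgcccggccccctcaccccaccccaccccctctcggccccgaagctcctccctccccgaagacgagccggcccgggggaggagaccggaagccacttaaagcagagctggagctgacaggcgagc
Ahrr held 3 copies of GCGTG, at positions -107 to -103, -82 to -78 and -27 to -23, counted from -1 at the base before the start site. The copy nearest the start lies within the longer element TNGCGTG, of which the other windows held 0. Cyp1a1 (-54 to -50), Cyp1b1 (-76 to -72) and Tiparp (-170 to -166) held 1 copy of GCGTG each, as did Arnt (-29 to -25, window not shown). Among all 32851 RefSeq windows of this length, 28.2% held at least 1 GCGTG, 2.77% held 3 or more and 4.1% held TNGCGTG. The shorter motif is contained in the longer and is also one form of the hypoxia response element, and a match describes letters only. The enhancer elements best known for Cyp1a1 lie further upstream, outside this window.

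The deposited values were RMA intensities, with array medians of 124 to 128. One array, LE540 replicate 1, stood apart on the first principal component (63.7, against -21.5 to 13.9 on the other arrays), and changes without it are given for the 6 genes. The tissue carried the label's markers. Of 12 valve interstitial and fibroblast markers, 11 to 12 lay above the array median on every array, as did 4 to 8 of 8 endothelial markers. Heart muscle signal was present too, since 5 to 8 of 8 cardiomyocyte markers lay above the median. Of 4 hepatocyte markers, 0 to 1 did. A Y-linked score (log2 values of 3 Y-linked genes, each centred over the arrays, then averaged) was 0.88 ± 0.79 on ATRA, 0.26 ± 1.54 on LE540 and -1.14 ± 1.33 on DMSO arrays (SD, n = 3 each), with wide spread inside each group.

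No change in any of the 6 genes passed the test with either compound. In ATRA vs DMSO 0 of 6 passed at an adjusted p under 0.1, where 0.0812% of all tested probe sets did (limma, Benjamini-Hochberg over 23397 probe sets), and 0 of 6 had an unadjusted p under 0.05, against 4.7% of all. In LE540 vs DMSO 0 of 6 passed, against 0.0299% of all, and 1 of 6 had an unadjusted p under 0.05 (Cyp1a1), against 8.8% of all. In ATRA vs LE540 0 of 6 passed, against 0.603% of all, and 0 of 6 had an unadjusted p under 0.05, against 9.54% of all. The groups did not overlap for 0 of 6 genes in ATRA vs DMSO (11.3% of all probe sets), 1 of 6 in LE540 vs DMSO (12.6%) and 1 of 6 in ATRA vs LE540 (11.5%), in both cases Cyp1a1. The adjusted p of the 6 genes was 0.999 in ATRA vs DMSO, 0.535 to 0.749 in LE540 vs DMSO and 0.615 to 0.95 in ATRA vs LE540. Since the samples are whole explants, fewer cells of a type and less RNA per cell cannot be told apart.

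**Figure D1:**
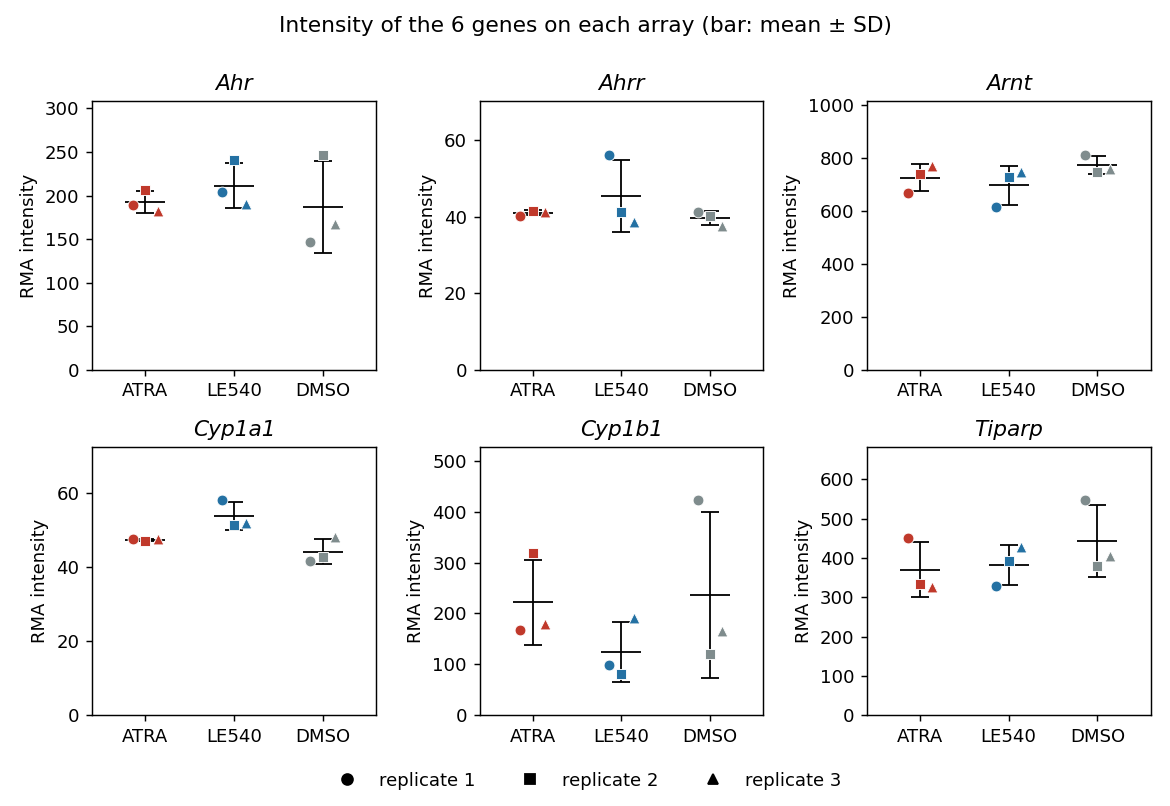
RMA intensity (linear, from 0) of each gene on the 9 arrays, with ATRA, LE540 and DMSO along the x axis, marker shape for the replicate number, and bars for the mean ± SD of 3 arrays. The groups overlap for Ahr, Ahrr, Arnt, Cyp1b1 and Tiparp, whereas the 3 LE540 arrays of Cyp1a1 (51.2 to 57.9) lie above the ATRA and DMSO arrays.

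The receptor itself was measured above the array median on all 9 arrays. Ahr (probe set 10400006) read 189, 207 and 182 on ATRA arrays, 204, 240 and 190 on LE540 arrays, and 147, 247 and 167 on DMSO arrays. The DMSO arrays spanned the widest range and enclosed all ATRA and LE540 values. Its log2 change was 0.08 with ATRA (SE 0.19, 95% confidence interval -0.35 to 0.50) and 0.21 with LE540 (SE 0.19, -0.22 to 0.63). ATRA and LE540 differed by -0.13 (-0.55 to 0.30). Without LE540 replicate 1 the change with LE540 was 0.23 and ATRA vs LE540 was -0.15. The means were 193 ± 12.5 on ATRA, 211 ± 26.1 on LE540 and 187 ± 52.7 on DMSO arrays (SD, n = 3 each), so LE540 ranked first and DMSO last, and no neighbouring pair passed the test.

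Ahr was highest on the replicate 2 array of every group, a pattern that 7.03% of all tested probe sets shared and none of the other 5 genes did. For 22% of all probe sets some one replicate number was highest in all 3 groups, so 1 of 6 genes is near that share. On those 3 arrays the endothelial score, the mean centred log2 value of 8 endothelial markers, was also the highest of its group, at 1.12 for ATRA, 0.34 for LE540 and 0.39 for DMSO. The other arrays had scores of 0.03 and 0.05 for ATRA, -0.83 and -0.24 for LE540 and -0.55 and -0.32 for DMSO. The summed intensity of these markers ran from 1954 to 4910 on ATRA, 1112 to 2573 on LE540 and 1413 to 2771 on DMSO arrays, with 0 to 2 of the 8 below the lower quartile of an array. Between the other arrays of a group, the endothelial score and Ahr ran in the same order in DMSO only. The Y-linked score was also lowest on the replicate 2 arrays, at -0.03, -1.52 and -2.5. The part of either in the Ahr values was not tested, apart from a fit that adjusted for the Y-linked score. In that fit the log2 change of Ahr was 0.38 with ATRA (adjusted p = 0.82) and 0.42 with LE540 (adjusted p = 0.439).

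Arnt, the obligate partner of Ahr and also of the hypoxia-inducible factors, varied least between arrays in proportion, by 1.32-fold from lowest to highest. It read 668, 738 and 768 on ATRA arrays, 613, 727 and 747 on LE540 arrays, and 811, 747 and 758 on DMSO arrays. The lowest value was that of LE540 replicate 1, and the groups overlapped in every comparison. The log2 change was -0.09 with ATRA (95% confidence interval -0.34 to 0.15) and -0.15 with LE540 (-0.40 to 0.09), and without LE540 replicate 1 the change with LE540 was -0.07 and the ATRA vs LE540 difference -0.03 in place of 0.06. The means were 725 ± 51.5 on ATRA, 696 ± 72.2 on LE540 and 772 ± 34.2 on DMSO arrays (SD, n = 3 each), with no neighbouring pair past the test.

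Cyp1a1, the P450 enzyme whose induction is the classic sign of an active receptor, gave a dim signal in all groups. It read 47.5, 47.1 and 47.5 on ATRA arrays, 57.9, 51.2 and 51.8 on LE540 arrays, and 41.7, 42.6 and 48.0 on DMSO arrays. Every LE540 value lay above every ATRA and DMSO value, while ATRA and DMSO overlapped. Of all tested probe sets, 6.74% were likewise higher on every LE540 than on every DMSO array, and 6.24% were lower on every ATRA than on every LE540 array. In limma's fit the log2 change with LE540 was 0.28 (1.22-fold, SE 0.10, 95% confidence interval 0.07 to 0.50, adjusted p = 0.535), and 721 probe sets had a smaller p. ATRA differed from DMSO by 0.11 (-0.11 to 0.32) and from LE540 by -0.18 (-0.40 to 0.04, adjusted p = 0.615). The means were 47.4 ± 0.266 on ATRA, 53.6 ± 3.72 on LE540 and 44.1 ± 3.41 on DMSO arrays (SD, n = 3 each).

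All 9 Cyp1a1 values lay below the lower quartile of their array (57.7 to 63.0). They also lay below the 95th percentile (93.0 to 111) of 1035 probe sets for olfactory receptors, a family with little expression outside sensory epithelium, chosen after seeing the data as a mark of low signal. Probe sets differ in how strongly they respond, so this does not set Cyp1a1 against any gene, and its signal over background is unknown. LE540 replicate 1, which had the highest Cyp1a1 value, also had the highest lower quartile and olfactory receptor median (35.2, against 29.3 to 33.5 on the other arrays). Without that array the log2 change with LE540 was 0.23 (adjusted p = 0.87) and ATRA vs LE540 was -0.12.

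Ahrr, the repressor that competes with Ahr for Arnt, was as dim. It read 40.2, 41.4 and 41.3 on ATRA arrays, 56.1, 41.3 and 38.6 on LE540 arrays, and 41.3, 40.0 and 37.7 on DMSO arrays. Apart from LE540 replicate 1 the 8 arrays lay within 37.7 to 41.4, and all 9 values fell below the lower quartile of their array. The log2 change was 0.05 with ATRA (95% confidence interval -0.27 to 0.36) and 0.17 with LE540 (-0.14 to 0.49). Without LE540 replicate 1 the change with LE540 was 0.01, and ATRA vs LE540 was 0.04 in place of -0.13. The means were 41.0 ± 0.666 on ATRA, 45.3 ± 9.44 on LE540 and 39.7 ± 1.84 on DMSO arrays (SD, n = 3 each), with no neighbouring pair past the test.

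Cyp1b1, a P450 enzyme of mesenchymal tissues that acts on steroids, retinol and many foreign compounds, was the most variable of the 6. It read 168, 319 and 179 on ATRA arrays, 99.7, 81.1 and 191 on LE540 arrays, and 422, 120 and 165 on DMSO arrays. The highest value was 5.20 times the lowest, and within the DMSO group the ratio was 3.51. LE540 held the 2 lowest values, but its replicate 3 lay above 2 ATRA and 2 DMSO arrays. These 2 lowest values, 99.7 and 81.1, were also below the olfactory receptor 95th percentile of their arrays (111 and 93.0), while the other 7 were above it, so the estimates with LE540 rest partly on values not above that mark of low signal. The means were 222 ± 83.9 for ATRA, 124 ± 59.1 for LE540 and 236 ± 163 for DMSO (SD, n = 3 each).

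The log2 change of Cyp1b1 was -0.81 with LE540 (SE 0.49, 95% confidence interval -1.94 to 0.31, adjusted p = 0.641) and 0.06 with ATRA (SE 0.49, -1.06 to 1.19, adjusted p = 0.999). ATRA vs LE540 was 0.88 (SE 0.49, -0.25 to 2.00, adjusted p = 0.627). The within-group SD of its log2 values, 0.722, exceeded that of 98.1% of tested probe sets, whose median was 0.186. These intervals include no change as well as 2-fold changes. Single arrays moved the estimates: without DMSO replicate 1 the change with LE540 was -0.29 and that with ATRA 0.59, and without DMSO replicate 2 they were -1.19 and -0.31. Without LE540 replicate 1 the change with LE540 was -0.71 and ATRA vs LE540 was 0.77.

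Cyp1b1 was highest in each group on the array with the highest cardiomyocyte score, the mean centred log2 value of 8 cardiomyocyte markers. That score was 0.34 on ATRA replicate 2, 0.48 on LE540 replicate 3 and 0.64 on DMSO replicate 1, against -0.45 and -0.74 on the other ATRA arrays, -0.19 and 0.27 on the other LE540 arrays and -0.43 and 0.08 on the other DMSO arrays. The summed intensity of the 8 markers ran from 11129 to 18787 on ATRA, 10835 to 18687 on LE540 and 11459 to 23180 on DMSO arrays, and none of them fell below the lower quartile of any array. With the score as a covariate the log2 difference in ATRA vs LE540 was 1.46 (SE 0.33, adjusted p = 0.242), the change with LE540 was -0.92 (SE 0.30, adjusted p = 0.573) and that with ATRA 0.53 (SE 0.32, adjusted p = 1). None of the 3 passed. Between the other arrays of a group, the cardiomyocyte score and Cyp1b1 ran in the same order in DMSO only. This match and that of Ahr with the endothelial score were taken from several genes and marker scores. The share of all probe sets with such a match was not counted.

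**Figure D2:**
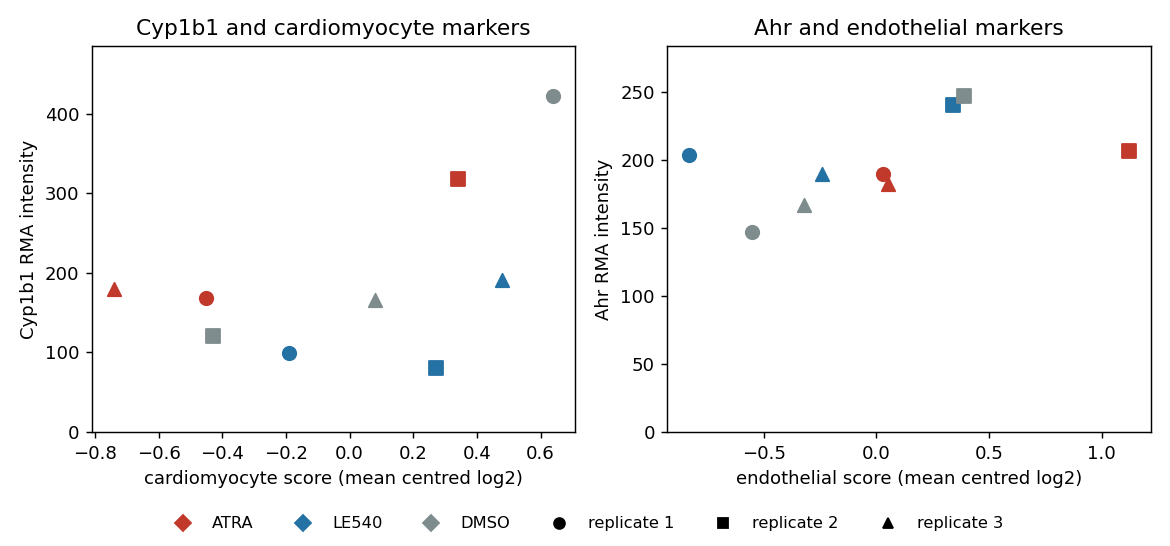
Left, RMA intensity of Cyp1b1 against the cardiomyocyte score of each array; right, Ahr against the endothelial score (both scores in mean centred log2 units, colour for the group, shape for the replicate number). In each group the highest Cyp1b1 value falls on the array with the highest cardiomyocyte score. The highest Ahr value (207, 240 and 247) falls on the array with the highest endothelial score. Between the other arrays of a group the order matches in DMSO only, in both panels.

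Tiparp, a mono-ADP-ribosyltransferase that modifies Ahr and lowers its activity, was above the array median throughout. It read 451, 333 and 326 on ATRA arrays, 328, 391 and 427 on LE540 arrays, and 546, 378 and 404 on DMSO arrays. In each of the 3 same-numbered pairs the ATRA array was below the DMSO array, yet the groups overlapped because ATRA replicate 1 exceeded 2 DMSO arrays. Same-numbered pairs also all went in a single direction for Ahr, Arnt and Cyp1a1 in ATRA vs LE540. So did those of Ahrr, Arnt and Cyp1a1 in LE540 vs DMSO. The share of all probe sets with this pattern was not counted. The log2 change was -0.26 with ATRA (SE 0.18, 95% confidence interval -0.68 to 0.16, adjusted p = 0.999) and -0.20 with LE540 (SE 0.18, -0.62 to 0.22, adjusted p = 0.749). ATRA and LE540 differed by -0.05 (-0.47 to 0.37). Without LE540 replicate 1 the change with LE540 was -0.10 and ATRA vs LE540 was -0.16. The means were 370 ± 70.0 on ATRA, 382 ± 50.1 on LE540 and 443 ± 90.3 on DMSO arrays (SD, n = 3 each), so ATRA ranked last and DMSO first, with no neighbouring pair past the test.

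**Figure D3:**
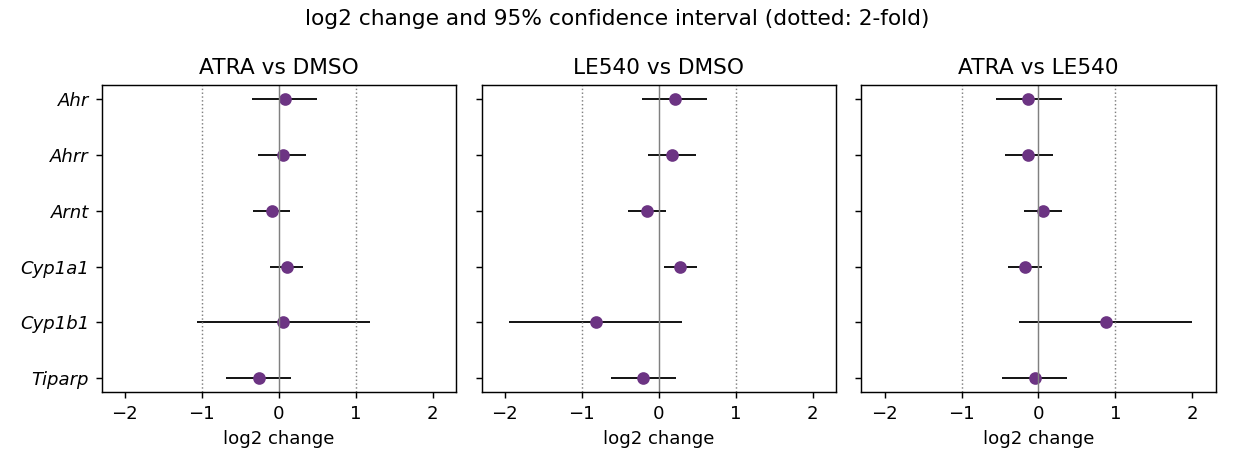
log2 change (points) and 95% confidence interval (lines) of the 6 genes in 3 comparisons (ATRA vs DMSO, then LE540 vs DMSO, then ATRA vs LE540), with dotted lines at a 2-fold change. The intervals of Ahr, Ahrr, Arnt, Cyp1a1 and Tiparp lie between the dotted lines in all 3 panels, and that of Cyp1b1 crosses at least 1 of them in each.

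The precision differed by gene. For 5 of the 6 genes a 2-fold change in either direction lay outside the 95% confidence interval in each of the 3 comparisons, with Cyp1b1 the exception. For Cyp1a1 and Ahrr this bound holds for the intensity and not for the transcript, given their dim signal. In ATRA vs DMSO 4 of the 6 genes were higher and 2 lower (median log2 change 0.06, against -0.01 over all genes), in LE540 vs DMSO 3 were higher and 3 lower (0.01, against 0.02), and in ATRA vs LE540 2 were higher and 4 lower (-0.09, against -0.03). The 2 comparisons with DMSO share its 3 arrays.

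Across the 9 arrays, 0 of 15 pairs among the 6 genes were correlated after Benjamini-Hochberg adjustment over the pairs at an adjusted p under 0.1 (exact permutation test, two-sided, lowest adjusted p = 0.248). Arnt and Cyp1a1 had Pearson's r = -0.738 (exact p = 0.0234, adjusted p = 0.248) and Spearman's rho = -0.538 (exact p = 0.139, adjusted p = 0.45) over 9 arrays, and r was -0.657 without ATRA replicate 1 and LE540 replicate 1. Ahr and Cyp1b1, receptor and target, had r = -0.703 (exact p = 0.0331, adjusted p = 0.248) and rho = -0.533 (exact p = 0.148, adjusted p = 0.45), and r was -0.458 without DMSO replicates 1 and 2. The targets Ahrr and Cyp1a1 had r = 0.605 (exact p = 0.109, adjusted p = 0.273) and rho = 0.017 (exact p = 0.973, adjusted p = 1.0). That value rested on single arrays, since r was -0.309 without DMSO replicate 3 and LE540 replicate 1.

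Among 15733 other probe sets with 1 listed gene and a mean above the lower quartile, those whose log2 values followed each gene most closely over the 9 arrays were picked by Pearson's r, which is given as a description, with names from the platform annotation. For Ahr they were Bcdin3d (0.963), Ereg (0.958) and Ece2 (0.938). Ereg, an epidermal growth factor family ligand, read 371, 414 and 417 on ATRA, 393, 618 and 417 on LE540 and 212, 588 and 280 on DMSO arrays. For Cyp1b1 they were Pappa (0.955), Sco1 (0.942) and Adhfe1 (0.939). Pappa, a protease that cleaves insulin-like growth factor binding proteins, read 132, 237 and 129 on ATRA, 110, 99.2 and 156 on LE540 and 223, 125 and 134 on DMSO arrays. It peaked on the same array of each group as Cyp1b1. Such shared peaks follow from picking the highest r among 15733 probe sets over 9 arrays.

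For Arnt the closest were Srsf5 (0.978), Usp45 (0.976) and Mfhas1 (0.975), and all 3 were lowest on LE540 replicate 1, as Arnt was. This shared low also follows from the choice by r, as do the shared peaks of the dim genes given below. Usp45, a deubiquitinating enzyme, read 246, 332 and 349 on ATRA, 190, 316 and 334 on LE540 and 396, 372 and 329 on DMSO arrays. Tiparp was followed by Kcna6 (0.935), Vmn2r9 (0.934) and St8sia2 (0.93). The dim genes were followed by others that peaked on LE540 replicate 1, with Meltf (0.98), Carhsp1 (0.977) and Cgn (0.973) for Ahrr and Tusc1 (0.956), Fbxw9 (0.951) and Efnb3 (0.949) for Cyp1a1. Rank correlation for Meltf and Ahrr was 0.698, well under the Pearson value that this single array carries.

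The genes around the receptor were followed in 7 lists, in which 72 of 88 genes had a probe set with 1 symbol. With ATRA 0 of the 72 passed against DMSO, with LE540 1 passed against DMSO (Hmox1), and in ATRA vs LE540 2 passed (Hmox1 and Parp8). Of all tested probe sets 0.0812%, 0.0299% and 0.603% passed in these comparisons. At such shares a count of 0 in any of the lists below says little about that list. List medians lay between -0.05 and 0.11 log2 in ATRA vs DMSO, -0.38 and 0.08 in LE540 vs DMSO, and -0.06 and 0.32 in ATRA vs LE540, beside -0.01, 0.02 and -0.03 over all 19934 genes. The chaperone and turnover genes of the receptor complex had 0 of 7 past the test in each comparison. Hsp90aa1, an Hsp90 isoform, was at -0.13 with ATRA against DMSO (adjusted p = 0.999) and at -0.19 in ATRA vs LE540 (0.651). Cdc37, an Hsp90 cochaperone, was at 0.16 with ATRA and 0.23 with LE540 (adjusted p = 0.999 and 0.759), and Cul4b, the scaffold of a ubiquitin ligase, was at -0.47 with LE540 (0.564) and at 0.48 in ATRA vs LE540 (0.504).

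Among relatives of Ahr and partners of Arnt, 0 of 11 passed in each comparison. Hif1a, the oxygen-regulated subunit that shares Arnt with Ahr, averaged 1940 ± 122 on ATRA, 1284 ± 141 on LE540 and 1429 ± 138 on DMSO arrays (SD, n = 3 each). It was at 0.44 in ATRA vs DMSO (adjusted p = 0.69) and 0.60 in ATRA vs LE540 (adjusted p = 0.111). Every ATRA array lay above every array of both other groups. Of all probe sets, 11.3% likewise did not overlap in ATRA vs DMSO and 11.5% in ATRA vs LE540, in either direction. Npas3, a neuronal bHLH-PAS factor, was at 0.33 with ATRA and 0.34 with LE540 (adjusted p = 0.999 and 0.638), Hif3a at 0.28 with LE540 (0.609), and the clock factor Arntl at -0.34 in ATRA vs LE540 (0.526). Arnt2, the paralogue of Arnt, was at 0.03 with ATRA and 0.02 with LE540.

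Of 9 nuclear coregulators 8 were lower with LE540 than with DMSO (median -0.38) and 9 were higher in ATRA vs LE540 (median 0.32), although 0 passed in any comparison. Over all 19934 genes 9166 were lower with LE540 and 8701 were higher in ATRA vs LE540, and both comparisons share the LE540 arrays. Without LE540 replicate 1, an alternative chosen for these lists after seeing the data, the coregulators had 8 lower (median -0.14) and 7 higher (median 0.15). The valve interstitial and fibroblast markers lay the same way, with 10 of 12 lower with LE540 than with DMSO (median -0.26) and 11 of 12 higher in ATRA vs LE540 (median 0.53). Without LE540 replicate 1 these were 7 of 12 (median -0.09) and 10 of 12 (median 0.37). The summed intensity of these 12 markers ran from 28016 to 30846 on ATRA, 15372 to 24000 on LE540 and 20844 to 26181 on DMSO arrays, lowest on LE540 replicate 1, and their part in the coregulator values was not tested. Smarca4, the ATPase of a chromatin remodelling complex, averaged 736 ± 72.6 on ATRA, 555 ± 90.3 on LE540 and 834 ± 99.4 on DMSO arrays, at -0.59 with LE540 (adjusted p = 0.413) and 0.42 in ATRA vs LE540 (adjusted p = 0.426). Ncoa1, a coactivator of nuclear receptors, was at -0.46 with LE540 (0.564), Hdac1, a deacetylase, at 0.46 in ATRA vs LE540 (0.689), Crebbp, an acetyltransferase, at -0.18 with ATRA (0.999), and Nrip1, a corepressor that retinoic acid is known to induce, at 0.41 with ATRA (0.735).

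Further genes reported as receptor targets went in both directions, and 0 of 14 passed. Aldh3a1, an aldehyde dehydrogenase of the classic receptor battery, averaged 83.9 ± 8.79 on ATRA, 94.8 ± 6.66 on LE540 and 179 ± 86.2 on DMSO arrays, at -0.97 with ATRA (adjusted p = 0.932) and -0.79 with LE540 (adjusted p = 0.556). Slc7a5, a transporter of large neutral amino acids that is also a target of the integrated stress response, averaged 512 ± 86.1 on ATRA, 1344 ± 279 on LE540 and 401 ± 193 on DMSO arrays, at 1.83 with LE540 (adjusted p = 0.206) and -1.38 in ATRA vs LE540 (adjusted p = 0.172). Nqo1, a quinone reductase shared with the Nrf2 pathway, was at 0.17 with ATRA and 0.52 with LE540 (95% confidence interval -0.16 to 1.20), and Cyp1a2, the liver paralogue of Cyp1a1, at -0.05 with ATRA and -0.06 with LE540. Scin, an actin-severing protein, was at 0.53 in ATRA vs DMSO (0.999) and 0.90 in ATRA vs LE540 (0.262). Group means of Cyp1a2 (38.5 to 40.1) and the LE540 mean of Scin (48.6) lay below the lower quartile of every array. The ATRA mean of Aldh3a1 lay below the olfactory receptor 95th percentile of every array (93.0 to 111). The signal of these readings over background is therefore unknown.

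**Figure D4:**
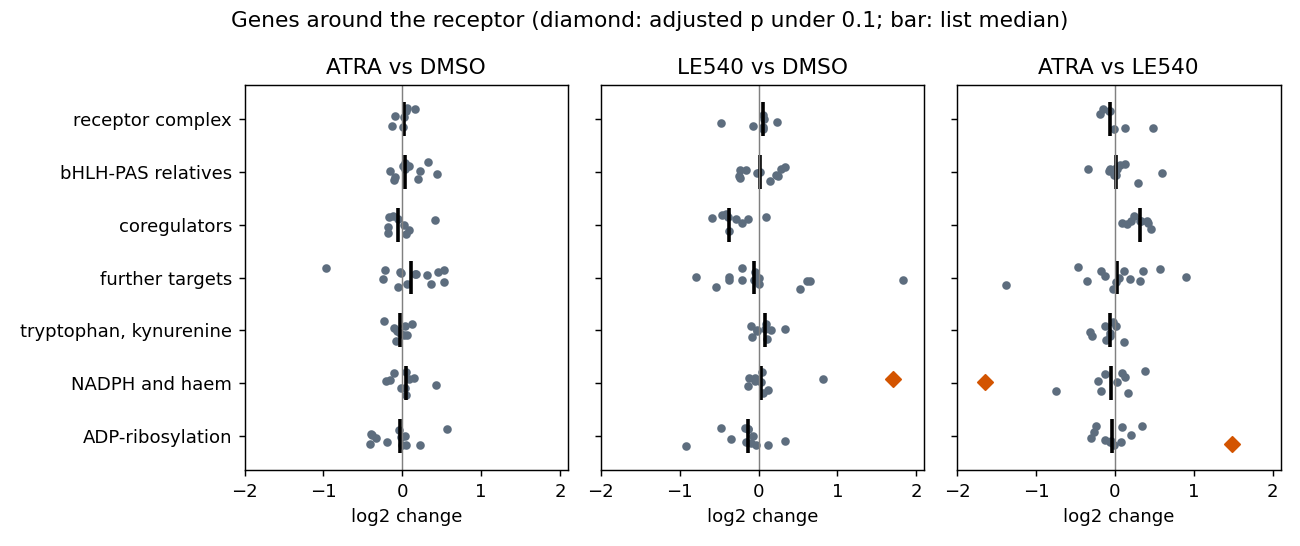
log2 change of each gene (points) in the 7 lists around the receptor, in the 3 comparisons, with bars at list medians and diamonds for genes with an adjusted p under 0.1. The diamonds are Hmox1 (1.70 with LE540 and -1.65 in ATRA vs LE540) and Parp8 (1.48 in ATRA vs LE540).

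Genes of tryptophan and kynurenine metabolism showed 0 of 9 past the test in each comparison, and medians within -0.06 and 0.08. Only some of these enzymes make kynurenine, a ligand of the receptor, while others act on it or on tryptophan in other ways. The largest differences were those of Tdo2 (-0.23 in ATRA vs DMSO and -0.31 in ATRA vs LE540), Aadat (0.33 in LE540 vs DMSO and -0.29 in ATRA vs LE540), Ido2 (0.16 in LE540 vs DMSO) and Kynu (0.12 in ATRA vs DMSO), with adjusted p of 0.556 to 0.999. Group means of Tdo2, Kynu and Aadat were 19.7 to 37.1 intensity units, below the lower quartile of every array, so their signal over background is unknown.

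Among 10 genes that supply electrons or haem to P450 enzymes, Hmox1, which degrades haem and is a target of Nrf2, averaged 1049 ± 96.5 on ATRA, 3357 ± 819 on LE540 and 1018 ± 164 on DMSO arrays (SD, n = 3 each). It rose with LE540 (log2 change 1.70, SE 0.19, adjusted p = 0.0917) and was lower in ATRA vs LE540 (-1.65, SE 0.19, adjusted p = 0.0171). The first call was lost with the replicate block (adjusted p = 0.133) and without any 1 DMSO array (0.163 to 0.437), ATRA replicate 2 (0.164), ATRA replicate 3 (0.134) or LE540 replicate 1 (0.221). It was also lost with quantile normalization (0.142), all rows (0.111), the Y-linked score (0.147), the cardiomyocyte score (0.179) or only the arrays compared (0.228). The log2 change was between 1.54 and 1.90 throughout these alternatives. By construction it cannot move with the replicate block, all rows, only the arrays compared or an ATRA array left out. The second call held under every alternative run (adjusted p up to 0.0978). Cyb5a, the cytochrome b5 that donates electrons, was at 0.43 with ATRA (adjusted p = 0.999), and Cyb5r3, its reductase, at -0.21 (0.999).

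Among 12 relatives of Tiparp and enzymes that remove its mark, Parp8 averaged 1339 ± 364 on ATRA, 492 ± 201 on LE540 and 886 ± 92.3 on DMSO arrays (SD, n = 3 each). It was higher in ATRA vs LE540 (log2 difference 1.48, SE 0.28, adjusted p = 0.0957, 0.08 with the replicate block), a call lost without any 1 DMSO array (0.157 to 0.2), ATRA replicate 1 (0.276), ATRA replicate 3 (0.252), LE540 replicate 1 (0.289) or LE540 replicate 2 (0.152). It was also lost with quantile normalization (0.107), all rows (0.108) or array weights (0.105). The same held with the Y-linked score (0.112), the cardiomyocyte score (0.21) or only the arrays compared (0.335). The log2 difference was between 1.28 and 1.80. By construction it cannot move with the replicate block, all rows, only the arrays compared or a DMSO array left out. Against DMSO it was at 0.57 with ATRA (0.999) and -0.92 with LE540 (0.51). Parp14 was at -0.41 with ATRA (0.999) and Oard1, which removes ADP-ribose, at -0.48 with LE540 (0.665).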

How the data were processed

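Per the submitters' processing notes, the deposited intensity values came from Affymetrix Expression Console 1.1 with RMA, which corrects background, quantile-normalizes arrays and summarizes probes. Annotation and genome build are not given in the sources used here, so no probe set or gene positions are given beyond the RefSeq promoter windows, which carry their own build. The deposited intensities ran from 4.09 to 17798 (linear), and log2 was taken before testing. Precision is limited by the 3 arrays per group. limma 3.58.1 in R 4.3.3 was fitted with 3 groups over all 9 arrays and all 23397 probe sets with a listed gene (21780 with 1 symbol, 1617 with several), with two-sided tests and 6 residual and 2.725 prior degrees of freedom. The threshold was the design text's false discovery rate, an adjusted p (Benjamini-Hochberg) under 0.1. The design text's further criterion, a fold change over 2, was not required for the counts given here. On simulated data, 2-fold changes were recovered in 80.6% of 67 cases for ATRA vs DMSO, 62.7% for LE540 vs DMSO and 67.2% for the third comparison. Each was 1 draw from the same means and spreads, so these shares do not rank the comparisons. The simulated arrays were independent, with none standing apart. The shares are over probe sets of all spreads and do not describe a gene as variable as Cyp1b1.

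The members, lists and alternatives were chosen with earlier results of these data known. The alternatives were a replicate block, only the arrays compared, quantile normalization, median centring, bright probe sets only, all rows, a trended or robust prior, array weights, a Y-linked or cardiomyocyte covariate, a stricter threshold, and leaving out each array. Named genes are the 6 members, up to 4 passing genes of each list or else its 2 largest changes, and the 3 closest probe sets by Pearson's r, plus a few chosen after their values were seen (Arnt2, Nqo1, Cyp1a2). Genes of lists were represented by their brightest probe set. Deviations of same-numbered arrays from their group means correlated at 0.143 to 0.342 in ATRA vs DMSO, 0.261 to 0.282 in ATRA vs LE540 and 0.00946 to 0.215 in LE540 vs DMSO. In the first and second of these the same-numbered correlation was the highest for every replicate number. In LE540 vs DMSO that held for replicate 2 only. Arrays matched by number in both ATRA comparisons would be matched in LE540 vs DMSO too. Whether the replicate number pairs arrays was not tested. The main fit used no pairing, so its SE and intervals leave it out. The replicate block was run only as an alternative, in all 3 comparisons. With it the SE of Ahr was 0.13 in place of 0.19.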

Additional observations from a re-analysis of the deposited data

How the results depend on the processing

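Under the 21 alternatives and in the 3 comparisons 0 of the 6 genes passed, with adjusted p of 0.242 or more. Of 372 recomputed log2 changes of the 6 genes, 174 equal the reported value by construction (the threshold, the prior or the probe sets tested changed, for example), and of the other 198, 186 kept their sign and 12 did not. Adjusted for the Y-linked score, Cyp1b1 in ATRA vs DMSO was -0.22, and with the cardiomyocyte score Ahr in ATRA vs DMSO was -0.0032 and Tiparp in ATRA vs LE540 was 0.06. With 1 array left out, Ahr in ATRA vs DMSO ran from -0.08 to 0.3 and Cyp1b1 from -0.31 to 0.59, and in ATRA vs LE540 Ahrr ran from -0.23 to 0.04, Arnt from -0.03 to 0.12 and Tiparp from -0.2 to 0.03; the cause was not tested.

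With so few probe sets passing in all, 0 of 6 says little about stability. The number of all probe sets that passed was 19 in ATRA vs DMSO, 7 in LE540 vs DMSO and 141 in ATRA vs LE540, and with 1 array left out it ran from 4 to 22, 0 to 297 and 54 to 278, in the same order of comparisons. In ATRA vs DMSO it was 29 with the replicate block, 9 with only the arrays compared, 9 with bright probe sets, 71 with array weights, 7 with the Y-linked score, 5 with the cardiomyocyte score and 8 at an adjusted p under 0.05. In LE540 vs DMSO it was 1 with the replicate block, 1 with only the arrays compared, and 0 after quantile normalization, with all rows, with the cardiomyocyte score or at 0.05. In ATRA vs LE540 it was 221 with the replicate block, 25 with only the arrays compared, 54 with the cardiomyocyte score and 60 at 0.05. The replicate block changed no call of the 6 genes. Dim signal limits Cyp1a1 and Ahrr, which the filter on bright probe sets removed.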
